A study of Bos taurus with 46 samples.

Results

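Transcripts of 9 chemokine receptor genes were followed in circulating maternal leukocytes of pregnant heifers: *CCR1*, *CCR2*, *CCR4*, *CCR6*, *CCR9*, *CXCR3*, *CXCR5*, *CXCR6* and *CX3CR1*. The genes were chosen by symbol as receptors of lymphocytes and monocytes, and all 9 were present among the 30675 genes of the count table. Each gene had between 91 and 17478 reads in every library, so all 9 passed the filter on low counts in every comparison.

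Chemokine receptors are G protein-coupled receptors that steer leukocytes along gradients of small secreted proteins, the chemokines. Which receptors a leukocyte carries decides which tissues it can enter, so receptor transcripts in blood follow both the mix of circulating cells and their state. *CCR1* and *CCR2* are best known from monocytes and other myeloid cells, and *CX3CR1*, the receptor for fractalkine, from patrolling monocytes and from cytotoxic T and NK cells. *CCR4*, *CCR9*, *CXCR3* and *CXCR6* mark T cells bound for skin, gut, inflamed tissue and liver or mucosa, respectively. *CXCR5* and *CCR6* guide B cells and some T cells into lymphoid follicles and mucosal tissue.

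Blood was taken from the same 23 Angus crossbred heifers on gestation D55 and D105, which gave 46 libraries, with 1 library per heifer and day. Of these, 8 heifers conceived by artificial insemination (AI, the controls) and 15 received embryos produced in vitro (IVP), from oocytes of slaughterhouse ovaries fertilized with semen of a single Brahman bull and cultured with estrus cow serum. The IVP recipients were divided by the D105 weight of their fetuses into 6 IVP-Normal and 9 IVP-LOS heifers, where LOS is large offspring syndrome, an overgrowth condition of ruminant fetuses. Heifers #604 and #664, both IVP-LOS, carried the largest fetuses and were compared as a pair with the other 21. The treatments are thus treatments of the embryo, and the RNA is the dam's. Each IVP recipient was given a pair of embryos, and some carried more than 1 fetus to D105. By the study's own list of dams, #604 was one of these and #664 was not.

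The RNA came from the buffy coat after lysis of red cells, with no sorting, so every value is over all leukocytes. In such bulk samples, fewer cells of a type and less RNA per cell cannot be told apart. The 5 pan leukocyte markers were read in 46 of 46 libraries. Reads on genes ranged from 18692653 to 24502012 per library. Reads on no gene made up 38.0% and 36.07% of the D105 libraries of #604 and #664 and at most 30.6% of any other library. The sample descriptions name 2 sets, BACKUP for the D105 libraries of AI and IVP-LOS heifers (17 libraries) and New for all others. What the sets are is not given in the sources used here. A change from D55 to D105 in AI or IVP-LOS heifers therefore cannot be told apart from the set, whereas both days of IVP-Normal heifers are New. A figure legend of the study places D55 blood in winter and D105 blood in summer, and its discussion names autumn, spring and summer. Day thus cannot be told apart from season in any treatment, IVP-Normal included. Gene models of the RefSeq annotation on ARS-UCD2.0, used for names and neighbours only, place *CXCR6* over a part of *FYCO1* and *CX3CR1* over *CCR8*, so these counts are uncertain where reads were shared. Of the 9 genes, 6 lie on chromosome 22, where *CCR1* neighbours *CCR3* and *CXCR6* neighbours *CCR9*. Levels are given as CPM (counts scaled to library size by TMM) and are compared within a gene only, since the values are not per transcript length.

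The plot of CPM by heifer and day shows the behaviour on which the results turn. *CCR1* rose steeply from D55 to D105 in most heifers and *CX3CR1* went down in nearly all, while the lymphocyte receptors stayed within their D55 range in most libraries.

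**Figure D1:**
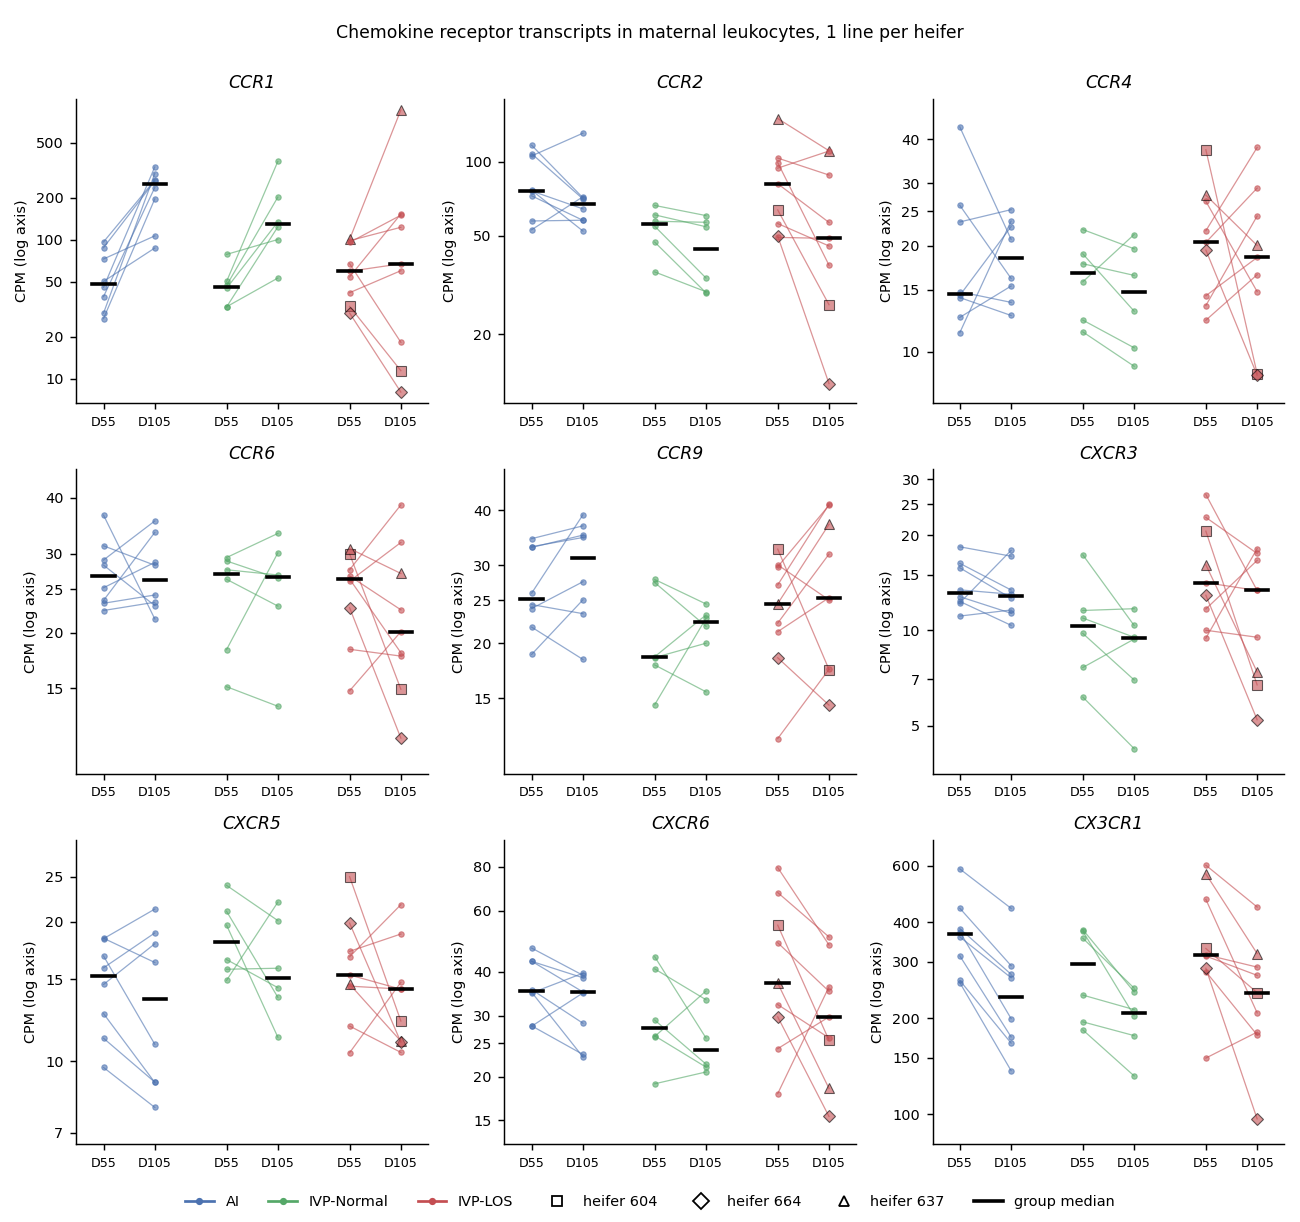
CPM (log axis) of each of the 9 receptor genes on D55 and D105, with 1 point per library, 1 line per heifer and a black bar at the group median, for 8 AI, 6 IVP-Normal and 9 IVP-LOS heifers. *CCR1* lines climb in 20 of 23 heifers and *CX3CR1* lines fall in 22 of 23, and the squares and diamonds of heifers #604 and #664 lie at the bottom of the *CCR1*, *CCR2* and *CCR4* panels on D105.

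The first question was how the receptors differed between D55 and D105 within each treatment. *CCR1*, a receptor for inflammatory chemokines such as CCL3 and CCL5, had the largest change of the 9 in AI and IVP-Normal heifers. In AI heifers, *CCR1* ranged from 27.1 to 96.5 CPM with a median of 47.8 on D55, and from 87.2 to 334.7 CPM with a median of 251.4 on D105. In 7 of 8 AI heifers the D105 level lay above the highest D55 level of the group, and the remaining library, from heifer #517, overlapped the D55 range. The mean was 56.0 ± 26.4 CPM on D55 and 224.7 ± 88.8 CPM on D105 (SD, n = 8). *CCR1* was 4.02-fold higher on D105 (log2 fold change 2.01, SE 0.32, FDR 0.000518, edgeR's quasi-likelihood test with Benjamini-Hochberg adjustment over all genes tested, called at an FDR of at most 0.05). It was the only receptor of the 9 called in AI heifers, against 9.95% of all genes tested (7.21% higher and 2.73% lower).

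In IVP-Normal heifers, whose libraries all belong to the set New, *CCR1* went from 32.8 to 78.5 CPM (median 45.8) on D55 to 53.0 to 366.6 CPM (median 129.1) on D105. All but the lowest D105 library, that of heifer #519, lay above every D55 library. *CCR1* was 3.42-fold higher (log2 fold change 1.77, SE 0.38, FDR 0.0236) and again was the only receptor called of 9, against 2.45% of all genes. This call was lost without any 1 of 4 heifers, where the FDR was between 0.0779 and 0.123 without heifer #560, #628, #633 or #688. With heifer as a replicate block, which compares each heifer with herself, the log2 fold change was 1.59 (SE 0.28, FDR 0.00862).

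IVP-LOS heifers were divided. *CCR1* ranged from 29.7 to 100.6 CPM (median 59.4) on D55 and from 7.99 to 861.2 CPM (median 67.1) on D105. On D105, 4 of 9 libraries exceeded the highest D55 library and 3 of 9, from #604, #664 and #557, were below the lowest. No receptor was called in this group by edgeR or DESeq2, against 0.251% of all genes by edgeR, and 1 receptor, *CX3CR1*, had an unadjusted p under 0.05 by edgeR, against 12.6% of genes. The fitted *CCR1* difference was 1.34 (SE 0.69, FDR 0.44) and fell to 0.32 (SE 0.52) without heifer #637, which held the 861.2 CPM. With the block it was 0.13 (SE 0.49, FDR 0.901), and -0.19 (SE 0.39) without #637.

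Heifer by heifer, *CCR1* was higher on D105 in 8 of 8 AI, 6 of 6 IVP-Normal and 6 of 9 IVP-LOS heifers. The median ratio of D105 to D55 was 4.57, 3.39 and 1.25, respectively. The highest ratio was 10.1, in AI heifer #648, and the 3 ratios below 1 were 0.271 in #557, 0.344 in #604 and 0.269 in #664. These 3 heifers are all IVP-LOS.

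*CX3CR1* moved the other way, by less but more evenly. In AI heifers it ranged from 258.5 to 587.5 CPM (median 366.6) on D55 and from 136.9 to 442.0 CPM (median 233.6) on D105. In IVP-Normal heifers the range was 183.7 to 378.8 CPM (median 296.2) on D55 and 131.8 to 248.4 CPM (median 208.1) on D105. In IVP-LOS heifers it was 149.9 to 603.3 CPM (median 316.2) on D55 and 96.7 to 446.2 CPM (median 240.3) on D105. The days overlapped in every treatment, with 4 of 8, 2 of 6 and 1 of 9 D105 libraries below the lowest D55 library of their group. Within heifers the order was nearly uniform, since *CX3CR1* was lower on D105 in 8 of 8, 6 of 6 and 8 of 9 heifers and higher only in IVP-LOS heifer #663 (1.21 times).

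For *CX3CR1* the test accordingly depended on whether heifers were compared with themselves. The unblocked log2 fold change was -0.60 (SE 0.22, FDR 0.103) in AI, -0.51 (SE 0.22, FDR 0.313) in IVP-Normal and -0.56 (SE 0.27, FDR 0.39) in IVP-LOS heifers, none of them called. With the block it was -0.65 (SE 0.07, FDR 0.000227) in AI heifers and -0.47 (SE 0.11, FDR 0.0287) in IVP-Normal heifers. With *CCR1*, this made 2 receptors called in each of these treatments, against 17.1% and 5.5% of all genes. In IVP-LOS heifers the blocked value was -0.57 (SE 0.16, FDR 0.118), and no receptor was called against 1.07% of genes. The IVP-Normal call was lost without heifer #628 (FDR 0.1), #633 (FDR 0.0723) or #669 (FDR 0.0705).

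*CCR2*, the receptor that brings monocytes out of the marrow towards CCL2, had a smaller difference. In AI heifers it ranged from 53.0 to 116.5 CPM (median 76.3) on D55 and from 52.4 to 130.4 CPM (median 67.5) on D105. IVP-Normal heifers had 35.8 to 66.5 CPM (median 56.1) and then 29.5 to 60.5 CPM (median 44.2), and IVP-LOS heifers 49.3 to 149.5 CPM (median 81.4) and then 12.6 to 110.7 CPM (median 48.9). The days overlapped in all 3 treatments. *CCR2* was lower on D105 in 5 of 8, 6 of 6 and 8 of 9 heifers, with log2 fold changes of -0.20 (SE 0.20, FDR 0.593), -0.29 (SE 0.21, FDR 0.602) and -0.46 (SE 0.34, FDR 0.627), and it was called in no treatment with or without the block.

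No receptor best known from T cells was called between days in any treatment. *CXCR6*, found on tissue-homing effector T cells, had group medians of 35.3, 27.7 and 37.1 CPM on D55 and 34.9, 23.8 and 29.7 CPM on D105 in AI, IVP-Normal and IVP-LOS heifers. *CXCR3*, the receptor of the interferon-induced chemokines, had medians of 13.1, 10.4 and 14.2 CPM on D55 and 12.8, 9.45 and 13.4 CPM on D105. Both were lower on D105 in 17 of 23 heifers, with fitted log2 fold changes between -0.45 and -0.06 in the 3 treatments. *CCR9*, the gut-homing receptor for CCL25, leaned the other way, with medians of 25.2, 18.6 and 24.6 CPM and then 31.1, 22.3 and 25.4 CPM, and it was higher in 15 of 23 heifers. *CCR4*, of skin-homing and type-2 helper T cells, was lower in 13 of 23 heifers and had fitted log2 fold changes between -0.14 and -0.09.

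The receptors best known from B cells were as close between days. *CXCR5*, the receptor that takes B cells into follicles, had medians of 15.3, 18.1 and 15.3 CPM on D55 and 13.6, 15.1 and 14.3 CPM on D105, with a lower level in 15 of 23 heifers. *CCR6*, the receptor of CCL20, had medians of 26.7, 26.96 and 26.3 CPM and then 26.3, 26.7 and 20.1 CPM, with a lower level in 13 of 23 heifers. Fitted log2 fold changes were between -0.20 and -0.08 for *CXCR5* and between -0.13 and 0.07 for *CCR6*.

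**Figure D2:**
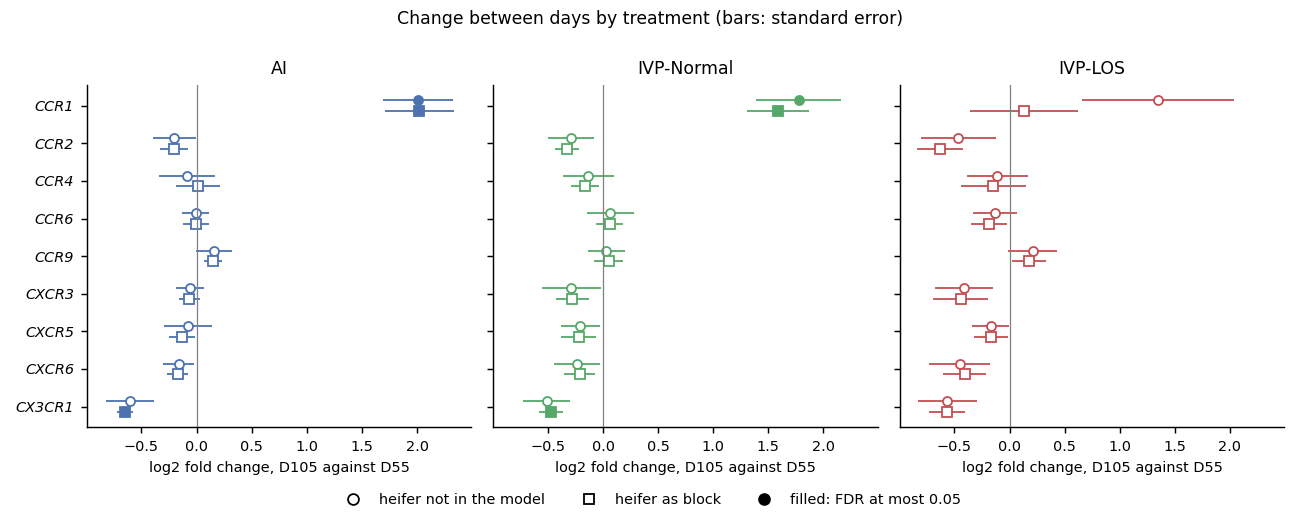
Log2 fold change from D55 to D105 of the 9 receptors in each treatment, without (circles) and with (squares) heifer as a replicate block, where bars are ±1 SE and filled points are called at an FDR of at most 0.05. *CCR1* stands to the right of 0 in AI and IVP-Normal heifers under both fits, *CX3CR1* lies at -0.65 to -0.47 throughout with the shorter bars in the blocked fit, and the 6 receptors best known from lymphocytes lie between -0.45 and 0.21 with no filled point, lowest for *CXCR6* and *CXCR3* in IVP-LOS heifers.

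To gain precision, all 23 heifers were also fitted together with heifer as a replicate block, a fit added after the data had been seen. In it 4 receptors were called, against 31.8% of all genes tested (15.6% higher and 16.2% lower). *CCR1* was higher (1.23, SE 0.31, FDR 0.00324). *CX3CR1* (-0.56, SE 0.08, FDR 4.09e-06), *CCR2* (-0.39, SE 0.11, FDR 0.00689) and *CXCR6* (-0.27, SE 0.10, FDR 0.0394) were lower. The *CXCR6* call was lost without heifers #604 and #664 (FDR 0.0909) or without #637 (FDR 0.0758), and *CCR9* was called higher without #604 and #664 (0.20, SE 0.07, FDR 0.0244). The other 4, *CXCR3* (-0.26, FDR 0.0975), *CXCR5* (-0.16, FDR 0.16), *CCR4* (-0.09, FDR 0.68) and *CCR6* (-0.05, FDR 0.697), were not called. In the same fit 6 of 6 neutrophil markers (median log2 fold change 2.12), 3 of 3 eosinophil markers and 3 of 7 monocyte markers were called higher, with 1 of 7 monocyte markers lower. Of the NK and cytotoxic markers, 6 of 9 were lower and 1 higher (median -0.28), of the B cell markers 7 of 9 were lower (median -0.22), and of the T cell markers 3 of 12 were higher and 1 lower. Both erythroid markers tested were lower, 1 of 5 platelet markers was higher, and no pan leukocyte or non-blood marker was called. The part of these markers in the receptor values was not tested. Since the AI and IVP-LOS heifers make up most of this fit, day and set cannot be told apart in it either.

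Markers of myeloid cells moved over the same interval also within single treatments, in the fits without the block. The summed level of 6 neutrophil markers went from 579.6 to 1453 CPM (median 961.4) on D55 to 1499 to 4597 CPM (median 2147) on D105 in AI heifers, from 357.2 to 1007 CPM (median 777.1) to 927.6 to 4262 CPM (median 1583) in IVP-Normal heifers, and from 436.8 to 1403 CPM (median 989.3) to 291.4 to 11780.5 CPM (median 971.0) in IVP-LOS heifers. In AI heifers 6 of 6 neutrophil markers were higher, led by *MMP9* (4.40), *CXCR2* (4.24) and *MGAM* (3.85, all log2 fold changes), and in IVP-Normal heifers 4 of 6, against 0 of 6 in IVP-LOS heifers. Of the monocyte markers, 3 of 7 tested were higher in AI heifers (*CD68* 1.14, *SLC11A1* 0.98 and *CD14* 1.01) and 0 of 7 in the others. *FCGR1A*, a defining monocyte marker, was near 0 throughout. Of 3 eosinophil markers tested, *SIGLEC8* and *ALOX15* were higher in AI and IVP-Normal heifers and *ALOX15* alone in IVP-LOS heifers. T cell, B cell, platelet, erythroid, pan leukocyte and non-blood markers had no call in any treatment in these fits, and of the NK and cytotoxic markers *GZMB* was higher in IVP-Normal heifers (2.11). Within heifers, the summed NK and cytotoxic markers changed by -0.33 ± 0.12 in AI, -0.31 ± 0.18 in IVP-Normal and -0.23 ± 0.26 in IVP-LOS heifers (log2, mean ± SD). The part of these cells in the receptor changes was not tested beyond the ratios that follow.

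Each receptor was then set against the summed level of the cell type it is best known from, as the within-heifer change in log2 ratio, with an exact sign-flip permutation test and adjustment over 27 tests. None of the 27 passed after adjustment, and the smallest adjusted p was 0.105. By itself no test could pass, because even the smallest exact p that 9 heifers allow (0.00391) is too large for adjustment over 27 tests. *CX3CR1* relative to monocyte markers was lower on D105 in 8 of 8 AI heifers (-1.30 ± 0.40) and 6 of 6 IVP-Normal heifers (-0.91 ± 0.52), with exact p = 0.00781 and 0.0312, the smallest that 8 and 6 heifers allow. In IVP-LOS heifers the value was -0.27 ± 0.72 (exact p = 0.297). *CCR2* relative to the same markers was likewise lower in 8 of 8 (-0.86 ± 0.38) and 6 of 6 (-0.76 ± 0.40) heifers, at the same exact p, and was -0.34 ± 0.48 (exact p = 0.0703) in IVP-LOS heifers. The monocyte sum itself changed by 0.65 ± 0.51, 0.44 ± 0.51 and -0.30 ± 0.87 in AI, IVP-Normal and IVP-LOS heifers, and enters these ratios. In the same order, *CCR2* by itself changed by -0.21, -0.32 and -0.64, and *CX3CR1* by -0.65, -0.47 and -0.57. *CCR1* relative to monocyte markers was higher in 7 of 8 AI heifers (1.34 ± 1.10, exact p = 0.0234), 5 of 6 IVP-Normal heifers (1.13 ± 0.77, exact p = 0.0625) and 6 of 9 IVP-LOS heifers (0.43 ± 0.88, exact p = 0.172).

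The neutrophil and NK lists were added as denominators after the data had been seen, with adjustment over 6 tests, and none passed. Relative to neutrophil markers, the *CCR1* change was 0.68 ± 1.10 (exact p = 0.156), 0.32 ± 0.95 (exact p = 0.469) and -0.13 ± 0.82 (exact p = 0.688) in AI, IVP-Normal and IVP-LOS heifers. In each treatment this change was smaller than its SD, which does not measure how closely *CCR1* and the neutrophil markers moved. *S100A12* had the highest level of the 6 neutrophil markers (median 726.7 CPM) and weighs most in their sum. In AI heifers the sum rose by 1.32 within heifers, while the median log2 fold change over the 6 markers was 2.71. Relative to NK and cytotoxic markers, *CX3CR1* changed by -0.32 ± 0.20 (exact p = 0.0156, adjusted 0.0936), -0.16 ± 0.19 and -0.34 ± 0.50, lower in 7 of 8, 5 of 6 and 7 of 9 heifers. *CXCR6* relative to T cell markers was lower in 7 of 8 AI (-0.26 ± 0.23, exact p = 0.0234), 5 of 6 IVP-Normal (-0.26 ± 0.43, exact p = 0.219) and 8 of 9 IVP-LOS heifers (-0.44 ± 0.33, exact p = 0.0156). Its ratio to the NK and cytotoxic markers was not tested. *CXCR3* was lower in 7 of 8 (-0.15 ± 0.28, exact p = 0.18), 4 of 6 (-0.31 ± 0.34, exact p = 0.125) and 7 of 9 heifers (-0.46 ± 0.48, exact p = 0.0352). *CCR4* and *CCR9* changed by at most 0.22 in size, within their SD in every treatment. *CXCR5* and *CCR6* relative to B cell markers changed by at most 0.34 in size, within their SD in every treatment.

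**Figure D3:**
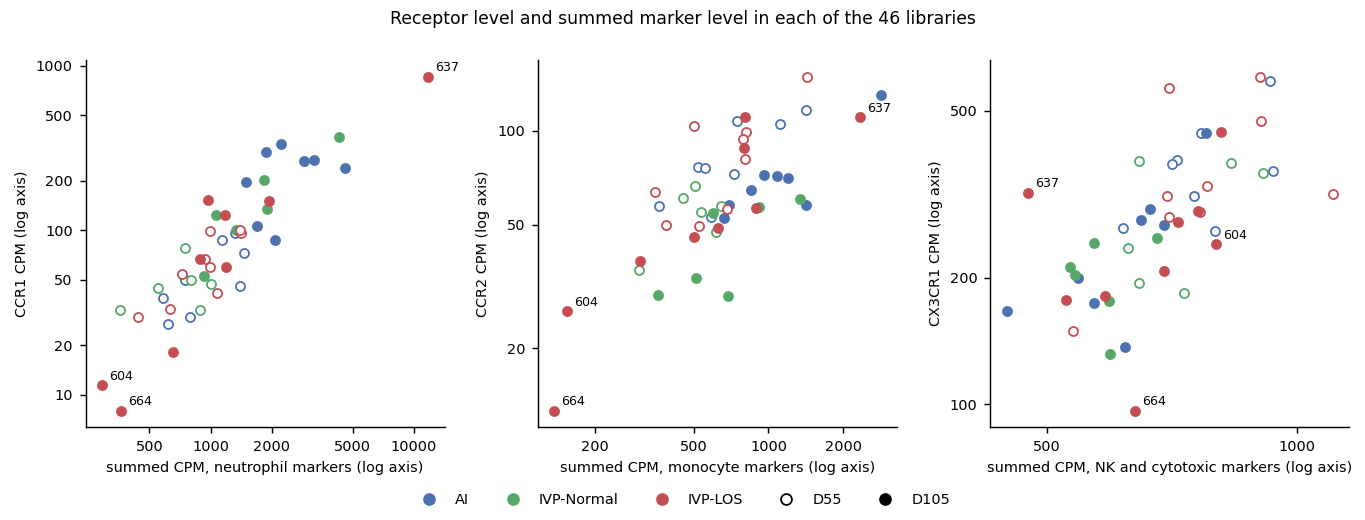
CPM of *CCR1*, *CCR2* and *CX3CR1* against the summed CPM of the neutrophil, monocyte and NK and cytotoxic markers, respectively (log axes), with 1 point per library, D55 open and D105 filled, coloured by treatment and with the D105 libraries of #604, #664 and #637 named. *CCR1* climbs with the neutrophil sum from the libraries of #664 and #604 at the lower left to that of #637 at the upper right.

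Other genes of the chemokine system, taken from lists chosen with the receptors, were counted for context. Of 14 other chemokine receptors tested, 6 were higher in AI heifers, among them *CXCR2* and *CXCR1* (5.26), the neutrophil receptors for CXCL8, and *XCR1* (1.23), known from cross-presenting dendritic cells. In IVP-Normal heifers 2 of 14 were higher, *CXCR2* (3.55) and *CXCR1* (4.03), and in IVP-LOS heifers none. The median over these 14 receptors was 0.28 in AI heifers, against -0.02 over all genes and -0.08 over the 9 receptors. Of 18 ligand genes 7 were expressed highly enough to be tested, and in AI heifers *CCL16* was higher (1.14) and *CXCL10*, a ligand of CXCR3, lower (-0.62). Of 27 genes of receptor signalling 6 were higher in AI heifers, led by *RGS2* (2.69), a brake on G protein signalling, *JAK2* (0.61) and *STAT3* (0.43), and none in the IVP treatments.

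The second question was whether the receptors differed between treatments on a given day. No receptor was called in any of the 6 comparisons, and no gene was called at all by edgeR's quasi-likelihood test, so the background was 0% in each. The likelihood ratio test of edgeR called 3, 1 and 1 genes on D55 and 3, 11 and 4 on D105 for IVP-Normal against AI, IVP-LOS against AI and IVP-LOS against IVP-Normal. With DESeq2, 15, 1 and 3 genes were called on D55 and 3, 43 and 13 on D105 in the same order, and by neither tool was any of them a receptor of the 9. Unadjusted p under 0.05 was reached by 1522, 1179 and 802 genes on D55 (9.92%, 7.74% and 5.19% of those tested) and by 1477, 880 and 501 on D105 (9.57%, 5.76% and 3.24%). Of the 9 receptors, 3, 0 and 2 reached it on D55 and 3, 0 and 0 on D105.

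The receptors below 0.05 before adjustment were *CCR2*, *CCR9* and *CXCR3* in IVP-Normal against AI heifers on both days. *CCR2* had a log2 fold change of -0.64 on D55 (SE 0.19, FDR 0.493) and of -0.71 on D105 (SE 0.22, FDR 0.514). *CCR9* had -0.38 (SE 0.17) and -0.49 (SE 0.16), and *CXCR3* -0.42 (SE 0.20) and -0.62 (SE 0.20). Both days come from the same heifers, so these are not separate samples, and on D105 the treatments also differ in set. In the same comparison the median log2 fold changes on D55 and D105 were -0.57 and -0.70 over the monocyte markers, -0.30 and -0.30 over the T cell markers, -0.44 and -0.24 over the NK and cytotoxic markers, and 0.45 and 0.47 over the B cell markers, with no marker called. Their part in the receptor values was not tested. Against IVP-LOS heifers, IVP-Normal heifers on D55 had the lower *CCR2* (IVP-LOS minus IVP-Normal 0.64, SE 0.24) and *CXCR3* (0.62, SE 0.26), at an FDR of 0.839 for each.

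For IVP-LOS against AI heifers on D105, both of the set BACKUP, the *CCR1* difference depended on which libraries were kept. It was -0.48 (SE 0.71, FDR 0.851) with all heifers and -1.59 (SE 0.54, FDR 0.167) without #637. The fit without #637 was not planned. It left out the highest IVP-LOS library (861.2 CPM) but kept the lowest, those of #604 (11.4 CPM) and #664 (7.99 CPM). It therefore does not show a lower *CCR1* in the other IVP-LOS heifers. In the planned fit of this contrast without #604 and #664, no receptor had an unadjusted p under 0.05. The D105 library of #637 had a neutrophil marker sum of 11780.5 CPM, where the next highest library of any heifer had 4597 CPM. The other 8 receptors differed by -0.27 to 0.09 between these groups, none reaching an unadjusted p of 0.05. Without #604 and #664, IVP-LOS heifers on D105 had higher *CCR2* (0.70), *CCR4* (0.62), *CCR9* (0.56) and *CXCR3* (0.66) than IVP-Normal heifers before adjustment, with an FDR of 0.598 for each, where 1272 of 15333 genes had an unadjusted p under 0.05.

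Whether the change between days differed between treatments was tested as an interaction. No gene was called (background 0% in all 3 tests), 546, 795 and 134 genes had an unadjusted p under 0.05 for IVP-Normal against AI, IVP-LOS against AI and IVP-LOS against IVP-Normal, and DESeq2 called 0, 0 and 1, not a receptor. The *CCR1* rise was smaller in IVP-LOS than in AI heifers by 0.67 on the log2 scale (-0.67, SE 0.80, FDR 0.935), and with the block the difference was -1.88 (SE 0.63, FDR 0.474). Against IVP-Normal heifers the blocked difference was -1.46 (SE 0.66, FDR 1). No difference in the *CCR1* change between treatments passed adjustment over all genes. For *CX3CR1* the blocked interactions were 0.18 (SE 0.13), 0.09 (SE 0.19) and -0.10 (SE 0.23), none with an unadjusted p under 0.05.

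The third question concerned heifers #604 and #664. The study singled them out for the weight of their fetuses and also because their libraries stood apart when these same data were clustered, so the size of the D105 contrast is not independent of their selection. On D105 the pair had low levels of *CCR1* and *CCR2* and of several lymphocyte receptors. *CCR1* was 11.4 CPM in #604 and 7.99 CPM in #664, against 18.3 to 861.2 CPM (median 150.3) in the other 21 heifers. *CCR2* was 26.3 and 12.6 CPM, against 29.5 to 130.4 CPM (median 57.9). *CCR4* was 8.67 and 8.58 CPM, against 9.09 to 37.9 CPM (median 18.5).

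For these 3 receptors both heifers lay below all 21 others, which held for 6.91% of all genes. *CCR6*, at 14.9 and 11.6 CPM, overlapped the low end of the others' 13.7 to 38.6 CPM (median 26.4). *CXCR3* was 6.73 and 5.22 CPM against 4.23 to 18.1 CPM (median 11.7), and *CCR9* 17.4 and 14.5 CPM against 15.5 to 41.2 CPM (median 25.1). *CXCR5*, *CXCR6* and *CX3CR1* of the pair lay among the others in #604, and in #664 *CXCR6* (15.4 CPM) and *CX3CR1* (96.7 CPM) lay below their lowest values of 18.5 and 131.8 CPM.

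In the fit, 4 of 9 receptors were called, all lower, against 21.1% of all genes tested, or 9.48% called lower. *CCR1* was 20.6-fold lower (log2 fold change -4.365, SE 1.12, FDR 0.0109) and *CCR2* 3.28-fold lower (-1.71, SE 0.49, FDR 0.0179). *CCR4* (-1.15, SE 0.38, FDR 0.0365) and *CCR6* (-0.97, SE 0.28, FDR 0.0185) were lower by less. *CXCR3* (-1.025, FDR 0.0522) and *CCR9* (-0.81, FDR 0.0646) were just short of the threshold, and *CXCR6* (-0.63, FDR 0.136), *CX3CR1* (-0.52, FDR 0.315) and *CXCR5* (-0.37, FDR 0.412) were farther from it. *CXCR3* was called by the likelihood ratio test of edgeR (FDR 0.0401) and by DESeq2 (FDR 0.0337). These tests called 3754 and 4464 of 16841 genes, against 3550 in the main fit. Within the set BACKUP alone 6 receptors were called, with *CXCR3* (FDR 0.00749) and *CCR9* (FDR 0.0249) added. That fit called 4976 of 16634 genes, so calls over all genes rose as well.

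With either heifer as the only member of her group, no receptor was called. Without #604 the values were -4.63, -2.33, -1.15 and -1.16 for *CCR1*, *CCR2*, *CCR4* and *CCR6*. Without #664 they were -4.14, -1.28, -1.15 and -0.81. Such a fit assumes that the lone heifer varies like the others, and the calls over all genes also dropped, from 3550 to 567 and 725.

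**Figure D4:**
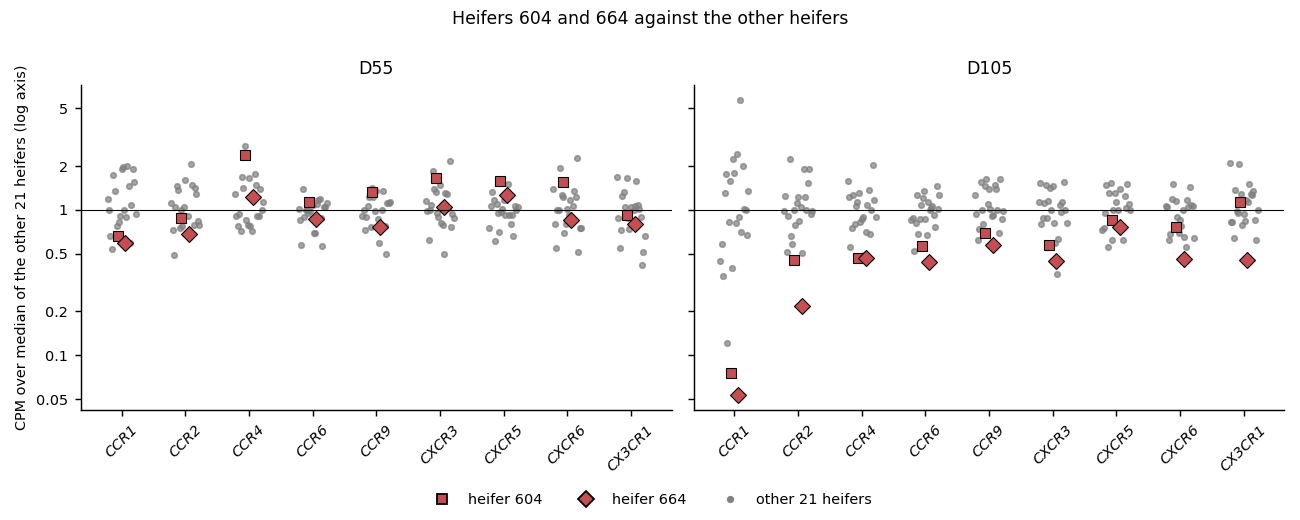
CPM of the 9 receptors divided by the median of the other 21 heifers (log axis), for heifers #604 (square) and #664 (diamond) and the others (grey points) on D55 and D105, with a line at the median. On D55 the pair lies within the range of the others for *CCR1*, and on D105 both lie below all others for *CCR1*, *CCR2* and *CCR4*.

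On D55 *CCR1* was 33.2 CPM in #604 and 29.7 CPM in #664, against 27.1 to 100.6 CPM (median 50.1) in the others, and *CCR2* was 63.7 and 49.9 CPM against 35.8 to 149.5 CPM (median 72.7). *CCR4* was 37.4 and 19.4 CPM, against 11.3 to 43.4 CPM (median 15.8). No receptor was called, against 0.0179% of genes, and none by DESeq2. Unadjusted p under 0.05 was reached by *CCR1* (-0.92) and *CXCR5* (0.51), against 4.72% of all genes, both at an FDR of 0.947. *CXCR5* was 25 CPM in #604, above all 21 others, and 19.85 CPM in #664, against 9.69 to 23.9 CPM (median 15.8). The pair lay below all other heifers for 0 of 9 receptors, against 0.532% of genes. The median log2 fold change on D55 was -0.89 over the monocyte markers and -0.89 over the neutrophil markers, with no marker called.

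The D105 libraries of the pair also differed in their cell type markers. The summed monocyte markers were 154.0 CPM in #604 and 137.0 CPM in #664, against 302.9 to 2833 CPM (median 808.0) in the other 21 heifers, and 6 of 8 monocyte markers were called lower, led by *VCAN* (-3.48), *SLC11A1* (-3.02) and *CD14* (-3.02). The summed neutrophil markers were 291.4 and 363.1 CPM, against 649.6 to 11780.5 CPM (median 1834), with 4 of 6 called lower. The summed T cell markers were 2085 and 1535 CPM against 1544 to 3372 CPM, with *TCF7* and *CD3D* called lower of 12. The summed B cell markers were 5915 and 7260 CPM against 1903 to 6774 CPM, with 3 of 9 called higher, among them *PAX5* and *CD79A*. NK and cytotoxic markers summed to 799.6 and 638.1 CPM against 447.0 to 810.9 CPM, with *TBX21* higher of 9, and 4 of 6 platelet markers (led by *PF4*, *GP9* and *TREML1*) and *HBB* were higher. The summed platelet markers were 2571 CPM in #604 and 328.0 CPM in #664 against 124.9 to 732.0 CPM, and the summed erythroid markers 590.0 and 135.0 CPM against 10.4 to 151.5 CPM, so that #604 alone lay above the others in both. *SIGLEC8* was lower of 4 eosinophil markers, and no pan leukocyte or non-blood marker was called. With the high share of reads on no gene, these values move with the receptor levels, and their part in them was not tested beyond the ratios to the lists.

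Set against these markers, the receptors did not move alike. As a log2 ratio to the monocyte sum, *CCR2* on D105 was -2.50 in #604 and -3.34 in #664, above 21 and 18 of the 21 other heifers, and *CX3CR1* was above all 21 in both. Relative to the monocyte markers, *CCR2* was thus not low in these libraries. *CCR1* relative to the monocyte sum was -3.64 and -3.94, with 2 and 1 of the others below and a median of -2.37. Relative to the neutrophil sum, added as a denominator after the data had been seen, *CCR1* was -4.56 and -5.34. There 1 and 0 of the others were below, and their median was -3.68. *CCR6* relative to the B cell sum was -8.54 and -9.17, and *CXCR5* was -8.81 and -9.24, each with 1 and 0 of the others below. *CCR4* relative to the T cell sum had 0 and 3 of the others below. Heifer #557, an IVP-LOS heifer outside the pair, had the next lowest *CCR1* on D105 (18.3 CPM, from 67.3 CPM on D55).

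Of 14 other chemokine receptors tested in the pair, *XCR1* (-2.25), *CXCR2* (-3.97) and *CXCR1* (-4.20) were called lower and none higher. Of 27 signalling genes 6 were lower, among them *RGS14* (-0.37), *ARRB2* (-0.88), which encodes a β-arrestin, and *PREX1* (-1.24), and of 10 ligands tested none was called. The median log2 fold change was -0.97 over the 9 receptors, -0.49 over the other receptors and -0.02 over all genes. Without a filter on low counts the median over all genes was -0.13, which is small beside the differences of the called receptors.

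How far a receptor's level belonged to the heifer was described by the correlation of log2(CPM + 1) on D55 with that on D105 across 23 heifers, with 100000 permutations and adjustment over 9 receptors. *CX3CR1* had the highest correlation (r = 0.718, permutation p = 0.00012, adjusted 0.00104; rho = 0.751, permutation p = 5e-05), and r was 0.709 without the 2 heifers farthest from the D55 median. Within sets it was 0.701 in 17 BACKUP heifers and 0.818 in 6 New heifers. The set of a heifer here is that of her D105 library. The BACKUP heifers are thus all AI and IVP-LOS heifers and the New heifers all IVP-Normal heifers, so this is also a split by treatment. *CCR2* followed (r = 0.678, permutation p = 0.00023, adjusted 0.00104; rho = 0.684), with 0.609 without the 2 farthest and 0.629 and 0.824 within sets. *CCR9* had r = 0.572 (permutation p = 0.0044, adjusted 0.0132; rho = 0.559), with 0.549 without the 2 farthest and 0.556 and 0.327 within sets.

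A heifer with much *CX3CR1* or *CCR2* on D55 thus tended to have much on D105, although both transcripts were lower on D105 in most heifers. *CXCR6* passed by r (0.48, adjusted permutation p = 0.0464) but not by rho (0.391, adjusted 0.149), and r was 0.224 without the 2 farthest heifers, so the relation rests on those heifers. The other 5 did not pass, with r = 0.399 for *CXCR5*, 0.356 for *CCR6*, 0.354 for *CXCR3*, 0.33 for *CCR1* and 0.0788 for *CCR4*. With levels centred on the treatment means, *CCR1* passed (r = 0.485, adjusted permutation p = 0.038) and *CXCR6* did not (r = 0.456, adjusted permutation p = 0.0518). Without #604 and #664, and without centring, r fell to 0.104 for *CCR1*. It rose to 0.556 for *CXCR5*, 0.517 for *CXCR3*, 0.476 for *CCR6* and 0.332 for *CCR4*. For *CX3CR1*, *CCR2*, *CCR9* and *CXCR6* it was then 0.782, 0.728, 0.685 and 0.545. These values without the pair carry no test. With all 23 heifers, the median r over all 16487 genes was 0.374.

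Across heifers on a given day, 36 pairs of receptors were correlated and adjusted within the day. On D55 6 pairs and on D105 16 pairs passed. No share of passing pairs over all genes was computed, so these counts are not read as a result about the receptors. Each of the 16 D105 pairs had a lower r without #604 and #664. It was then between 0.228 (*CCR1* with *CCR9*) and 0.637 (*CCR4* with *CCR9*). The closest pair on D55 was *CXCR3* with *CXCR6* (r = 0.805, permutation p = 1e-05, the smallest that the permutations can give, adjusted 0.00036; rho = 0.794), with 0.81 without the 2 farthest heifers and 0.877 and 0.563 in heifers of the sets BACKUP and New on D105. On D105 the same pair had r = 0.684 (adjusted permutation p = 0.00148; rho = 0.724), with 0.59 without the 2 farthest and 0.745 and 0.287 within sets. *CCR6* with *CCR9* had r = 0.64 on D55 (adjusted permutation p = 0.0119) and 0.731 on D105 (adjusted permutation p = 0.00117), with 0.45 and 0.603 without the 2 farthest. Within sets it had 0.633 and 0.644 on D55 and 0.817 and 0.983 on D105. Since all D55 libraries are New, the sets on both days are those of the D105 libraries, which also split the treatments.

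*CCR1* with *CCR2* had r = 0.605 on D55 (adjusted permutation p = 0.021; rho = 0.532) and 0.747 on D105 (adjusted permutation p = 0.00117; rho = 0.666), where it was 0.551 without #604 and #664, also the 2 farthest heifers. Within sets this pair had 0.599 and 0.61 on D55 and 0.819 and 0.675 on D105. *CCR1* with *CCR6* had r = 0.0376 on D55 and 0.694 on D105 (adjusted permutation p = 0.00148; rho = 0.59), 0.475 without the pair and 0.689 and 0.83 within sets. *CXCR6* with *CX3CR1* had r = 0.643 on D55 (adjusted permutation p = 0.0119; rho = 0.7), 0.561 and 0.802 within sets, and did not pass on D105 (0.439, adjusted permutation p = 0.076). *CXCR5* with *CCR6*, both set against the B cell markers above, had r = 0.151 on D55 and 0.0409 on D105. All receptors of a library share its scaling and its mix of cells.

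**Figure D5:**
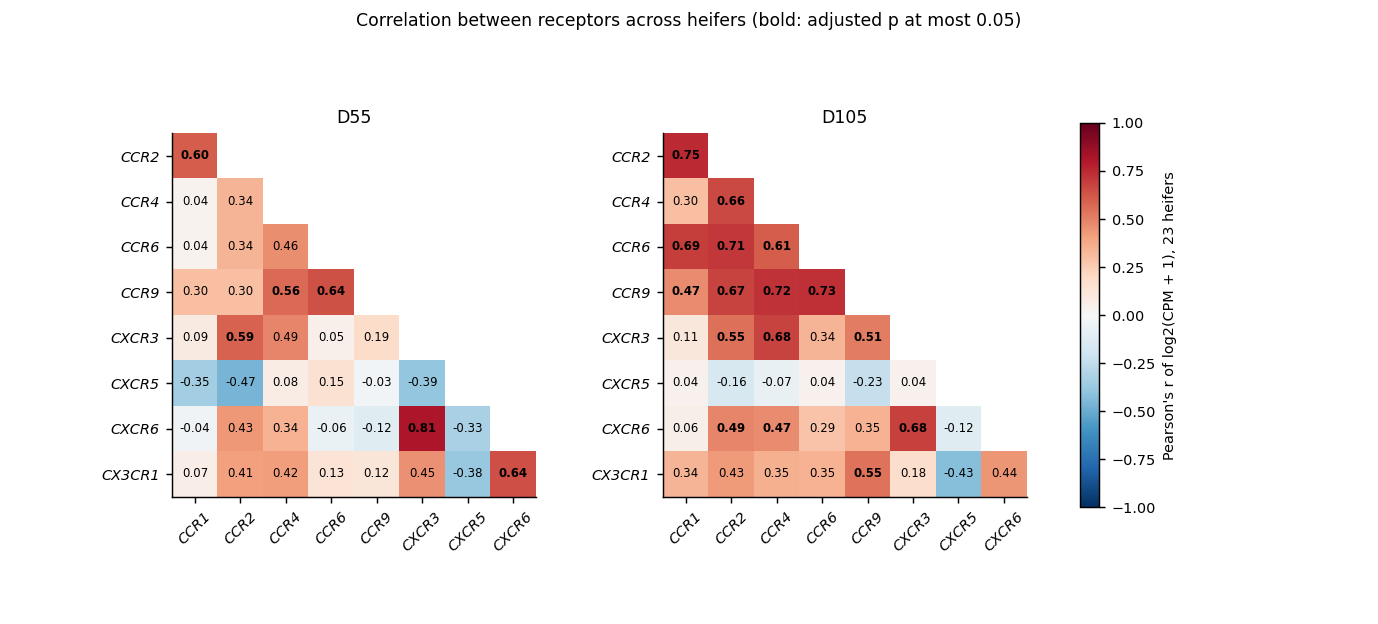
Pearson r between the 9 receptors across 23 heifers on D55 (left) and D105 (right), on log2(CPM + 1), with pairs at an adjusted permutation p of at most 0.05 in bold. Of 36 pairs, 6 are bold on D55, with *CXCR3* and *CXCR6* the closest at 0.805, and 16 on D105.

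The genes whose level was most like that of each receptor over the 23 D55 libraries are given as a description, with the D105 value beside that of D55. *CCR1* was closest to *TLR4* (r = 0.908 on D55 and 0.955 on D105), the endotoxin receptor, then to *VNN2* (0.903 and 0.982) and *ALPK1* (0.9 and 0.973). *CCR2* was closest to *PLBD1* (0.898 and 0.884), *HERPUD1* (0.869 and 0.842) and *GALNT1* (0.866 and 0.766). *CX3CR1* was closest to *ATP6V0A4* (0.937 and 0.84), *CD244* (0.846 and 0.799), a receptor of NK and cytotoxic T cells, and *ACER2* (0.839 and 0.714).

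Among the receptors best known from T cells, *CXCR6* was closest to *NKG7* (0.882 and 0.771) and *PRF1* (0.865 and 0.751), the granule genes of cytotoxic cells, and *NUCB2* (0.857 and 0.743). *CXCR3* was closest to *LOC100336282* (0.9 and 0.922), *ACTN4* (0.802 and 0.244) and the T cell antigen *CD6* (0.792 and 0.762). *CCR4* was closest to *ARMC10* (0.896 and 0.682), *SAMHD1* (0.845 and 0.83) and *SEC22B* (0.821 and 0.646), and *CCR9* to *PLA2G4B* (0.865 and 0.755), *PLCL1* (0.861 and 0.69) and *SOGA1* (0.835 and 0.799).

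Of the receptors best known from B cells, *CCR6* was closest to *FAM124A* (0.817 and 0.302), *LOC100847159* (0.811 and 0.612) and *NTNG2* (0.807 and 0.613), and *CXCR5* to *GPR82* (0.8 and 0.669), *KCNH3* (0.76 and -0.083) and *LOC787858* (0.701 and 0.488). *KCNH3* had a median of only 0.5525 CPM on D55. These values were picked as the highest of all genes tested on D55 and carry no test.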

How the data were processed

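Maternal leukocyte RNA of 23 heifers was sequenced on D55 and D105. Per the labels and the study's methods, the authors aligned the reads with HISAT2 2.1.0 to ARS-UCD1.2 and counted them with HTSeq in union mode, which drops reads shared by overlapping genes, and whether the libraries keep strand is not given in the sources used here. The authors deposited unnormalized counts of reads on genes, and the table on NCBI RefSeq genes was used. Summary lines (reads on no gene and the like) were left out of totals and tests. Groups came from the labels' group of fetuses, heifers from the sample titles, and the pair #604 and #664 from the study's methods. No comparison by number of fetuses was made.

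Comparisons used edgeR 4.0.16 in R 4.3.3 on the counts of the compared groups alone, with TMM, filterByExpr at a minimum count of 10, the quasi-likelihood F-test, Benjamini-Hochberg adjustment over all genes tested and an FDR of at most 0.05, in 14 fits. The SE of a log2 fold change was its size divided by the square root of F. CPM are counts scaled to TMM library sizes over all 46 libraries. Permutation tests were two-sided, in Python 3.11.15 with numpy 2.4.6 and scipy 1.17.1, on log2(CPM + 1). Tried as alternatives were DESeq2 1.42.0, the likelihood ratio test of edgeR, upper-quartile scaling, no filter, all libraries in each fit, heifer as a replicate block, each heifer left out, IVP-LOS without #604 and #664, the set BACKUP alone and, for the correlation of days, levels centred on treatment means.

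The 2 libraries of a heifer come from the same animal, which pairs the days. Over 16487 genes their deviations from group means correlated with a mean r of 0.53 (0.28 to 0.828, above 0.1 in 23 of 23 heifers), against -0.0234 between heifers. All 9 receptors and, as named genes, up to 3 called genes with the smallest FDR per list and the 3 genes most like each receptor on D55 were reported. The receptors, lists and tests were chosen with earlier results of these data known. On simulated counts, the test of day in AI heifers called 47% of 100 genes changed 1.5-fold and 76% of 100 changed 2-fold among 15248 genes, with 9 false calls. The same shares were 25% and 63% for day in IVP-Normal heifers, and 37% and 59% for IVP-LOS against AI heifers on D105. The simulated libraries were independent, without the pairing by heifer. With 91 reads or more per receptor and library, the spread between heifers was at least 3.19 times the counting error in every group.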

Additional observations from a re-analysis of the deposited data

Results flagged for a closer look

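Across 54 groups (9 receptors by 6 groups of treatment and day), 3 held a library far from the rest of its group by Dixon's test, where chance flags about 1 in 20 groups. *CCR1* in IVP-LOS heifers on D105 was 861.2 CPM in heifer #637, where the next highest of the group was 153.3 CPM. The neutrophil marker sum of that library was 11780.5 CPM and its monocyte marker sum 2335 CPM, and their part in the value was not tested. *CCR2* in AI heifers on D105 was 130.4 CPM in heifer #546, with the next at 72.1 CPM. *CCR4* in AI heifers on D55 was 43.4 CPM in heifer #590, with the next at 26.01 CPM. Without #590 the day comparison in AI heifers called *CX3CR1* as well.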

How the results depend on the processing

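In AI heifers 1 receptor was called between days, 2 with heifer as a replicate block, and 1 to 2 with each heifer left out (2 without #590, where *CX3CR1* had -0.66, FDR 0.0293). In IVP-Normal heifers 1 was called, 2 with the block, 0 with all 46 libraries in the fit (*CCR1* 1.78, FDR 0.116), and 0 to 1 with each heifer left out. For #604 and #664 on D105, 4 were called, 5 by the likelihood ratio test of edgeR, 5 by DESeq2 (each adding *CXCR3*), and 0 to 5 with a heifer left out (0 without #604, 0 without #664 and 5 without #637). Over all genes, the main fit of the pair called 3550 of 16841, the likelihood ratio test 3754 and DESeq2 4464. Without #637 it called 3765 of 16813. The cause of these changes in receptor calls was not tested, beyond the block removing differences between heifers and the smaller fits holding fewer heifers. The block changed no other call. No called receptor reversed its direction under any alternative, and 33 of 908 values of receptors that were never called changed sign. DESeq2 gave *CCR1* a log2 fold change of -1.43 (FDR 0.331) for IVP-LOS against AI heifers on D105, where edgeR gave -0.48. The counts on Ensembl genes could not be used as an alternative for single receptors, since their identifiers are not paired with symbols here, and that alternative was not run. The spread between heifers and the sets BACKUP and New limit these comparisons, and the sets cannot be told apart from day in AI and IVP-LOS heifers. Season cannot be told apart from day in any treatment.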
